A study of Homo sapiens with 54 samples.

Results

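The genes described are the JUN and FOS family members of the AP-1 transcription factors together with ATF3 and BATF3, in WM266-4, an established human melanoma cell line whose BRAF gene carries the V600D change. They were chosen by symbol: JUN, JUNB, JUND, FOS, FOSB, FOSL1, FOSL2, ATF3 and BATF3, which are 9 of the 17875 genes with 1 symbol on the array, and all 9 have a value on each of the 54 arrays. Total RNA was measured on Affymetrix expression arrays in 18 groups of 3 arrays, lettered a, b and c. In the inhibitor arm (30 arrays), cells received DMSO, 0.05 uM LGX818 (encorafenib, which blocks RAF), 0.003 uM trametinib or 0.3 uM MEK162 (binimetinib), which both block MEK1/2, or, at 0.2 uM, an ERK1/2 inhibitor that the labels leave unnamed, for 3 h or 24 h. In the shRNA arm (24 arrays), parental cells were set beside lines carrying a non-targeting (NT) shRNA or the doxycycline-inducible shRNAs shERK1 and shERK2, at day 3 and day 7, with doxycycline at 100 ng/ml. The growth protocol names the cells with inducible shRNAs WM266-6, where the other labels give WM266-4. For parental cells the labels disagree on whether doxycycline was given. Each shRNA is present in its own line, so an effect of the shRNA and a property of the line cannot be told apart. Nothing in the labels tells separate cultures from repeat arrays of one culture, so each p measures only the spread between the arrays at hand.

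AP-1 is a dimer of basic leucine zipper proteins that binds short palindromic DNA elements. JUN proteins pair with themselves, with FOS proteins or with ATF proteins, whereas FOS proteins need a JUN partner. In cells with active ERK signalling, FOS, FOSB and JUNB are transcribed as immediate early genes through serum response factor and its ETS-type partners. FOSL1 (FRA-1) is known as a late and stable ERK-dependent member that is abundant in dedifferentiated melanoma. JUN is phosphorylated by the JNK kinases and is known to act on its own promoter, and ATF3 is a stress-induced member that can repress or activate. BATF3 lacks a transactivation domain and acts in partnership with JUN proteins, best known from dendritic cells.

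Promoter windows from RefSeq on GRCh38.p14 were held for 7 of the 9 genes, as 300 bases from 250 before to 50 after a transcription start, and ATF3 had 2 windows. FOSL1 and BATF3 had none. The windows of JUN, ATF3 (its upstream start) and FOSL2, whose transcripts rose with every inhibitor, and of FOSB and JUNB, whose transcripts fell with every inhibitor at 3 h, are printed so that the sequences of both sets can be set side by side. Each is written from 5′ to 3′ on the strand of the gene, and capitals mark a match on either strand to TGANTCA (the TPA response element), TGACGTCA (the cyclic AMP response element), TGACATCA (its variant known from the JUN promoter), CCGGAAGT (an ETS core), TATAAA or the CArG box. TGACATCA shares bases with TGACGTCA but a site cannot match both.
JUN, chr1:58783998-58784297, minus strand: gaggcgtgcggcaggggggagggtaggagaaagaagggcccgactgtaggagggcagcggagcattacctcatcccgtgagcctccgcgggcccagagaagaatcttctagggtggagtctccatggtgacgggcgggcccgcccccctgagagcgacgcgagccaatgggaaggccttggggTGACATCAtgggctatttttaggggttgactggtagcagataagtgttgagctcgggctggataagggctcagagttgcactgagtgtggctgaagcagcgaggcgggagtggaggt
ATF3, chr1:212565157-212565456, plus strand: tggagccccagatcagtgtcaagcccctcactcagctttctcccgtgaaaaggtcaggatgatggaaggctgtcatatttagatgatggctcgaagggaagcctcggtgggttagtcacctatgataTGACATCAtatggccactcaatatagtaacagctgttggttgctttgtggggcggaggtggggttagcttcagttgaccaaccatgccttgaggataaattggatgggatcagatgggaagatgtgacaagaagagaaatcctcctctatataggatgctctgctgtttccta
FOSL2, chr2:28392608-28392907, plus strand: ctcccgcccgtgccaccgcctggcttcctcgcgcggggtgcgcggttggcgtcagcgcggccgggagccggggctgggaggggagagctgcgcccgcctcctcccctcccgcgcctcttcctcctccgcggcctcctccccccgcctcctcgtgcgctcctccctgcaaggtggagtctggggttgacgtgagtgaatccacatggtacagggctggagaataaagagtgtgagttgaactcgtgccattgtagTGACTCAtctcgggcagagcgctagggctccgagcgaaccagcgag
FOSB, chr19:45467746-45468045, plus strand: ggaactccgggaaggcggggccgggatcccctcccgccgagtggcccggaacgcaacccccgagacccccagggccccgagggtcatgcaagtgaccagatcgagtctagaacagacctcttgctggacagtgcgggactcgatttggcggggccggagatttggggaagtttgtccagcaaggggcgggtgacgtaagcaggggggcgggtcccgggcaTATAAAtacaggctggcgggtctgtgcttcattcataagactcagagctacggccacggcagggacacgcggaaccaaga
JUNB, chr19:12791236-12791535, plus strand: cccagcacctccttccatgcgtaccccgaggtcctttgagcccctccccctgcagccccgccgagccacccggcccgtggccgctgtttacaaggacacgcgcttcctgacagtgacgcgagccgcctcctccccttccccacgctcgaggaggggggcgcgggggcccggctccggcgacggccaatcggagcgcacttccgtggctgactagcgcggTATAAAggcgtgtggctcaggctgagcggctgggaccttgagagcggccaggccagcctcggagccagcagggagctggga
The JUN window held TGACATCA starting 67 bases before the start, and the upstream ATF3 window held the same 8 letters starting 123 bases before it. That motif was present in 918 of 35116 promoter windows of the same length (2.61%). FOSL2 held TGACTCA at base 5 after its start, and TGANTCA was present in 7.71% of windows. FOSB and JUNB held TATAAA starting 30 and 31 bases before the start, as FOS did at 33 bases, against 11.5% of windows, and JUND held TGACGTCA, against 1.85%. The downstream ATF3 window held TATAAA 230 bases before its start. Neither CCGGAAGT (4.14% of windows) nor the CArG box (1.29%) matched in the windows of these genes. Sites more than 250 bases before or 50 after the start were not searched, so the genes may hold such elements elsewhere. A match is a run of letters and no binding was measured here.

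Array medians lay between 7.78 and 8.04 log2, and the mean correlation of an array with the others of its group between 0.991 and 0.998. The label of the shERK1 line was checked on its target: MAPK3, which encodes ERK1, read 7.98 to 8.49 in the shERK1 arrays and 9.30 to 9.87 in all others, while the level of the target of shERK2 is not analysed here. All 8 melanocyte markers measured lay above the median of all values in all 18 groups, against 1 of 6 fibroblast markers (COL1A2), 0 of 5 leukocyte markers (CD68 did in some groups) and 0 of 5 epithelial markers. The difference of the 3′ and 5′ GAPDH probe sets, which grows with RNA degradation, was 0.16 to 0.32 in the control arrays. It was 1.53 and 0.57 in arrays a and c of shERK2 at day 7, 0.71 in array c of the ERK inhibitor at 3 h and 0.53 in its array a at 24 h, and the values without these arrays are given beside the differences below whose call that ended or whose size it moved by over 1.5 times. A gene was tested where at least 1 group mean of its arm exceeded 7.86 log2, the median of all values, and it was called changed at a limma p, adjusted over all tested genes, under 0.05. JUN, JUNB and FOSL1 exceeded this level in every group. FOS in both arms, BATF3 in the inhibitor arm and FOSL2 in the shRNA arm never did, and their values come from a fit with no level filter. With the inhibitors FOSB passed only through DMSO at 3 h, FOSL2 only through LGX818 at 24 h and ATF3 only through treated groups, and with the shRNAs ATF3 and BATF3 passed only through shERK2, so a count over the members that passed favours change and counts over all 9 without a filter are given too. There are no detection calls, so the lowest levels can be background, from which a log2 difference may understate a change.

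**Figure D1:**
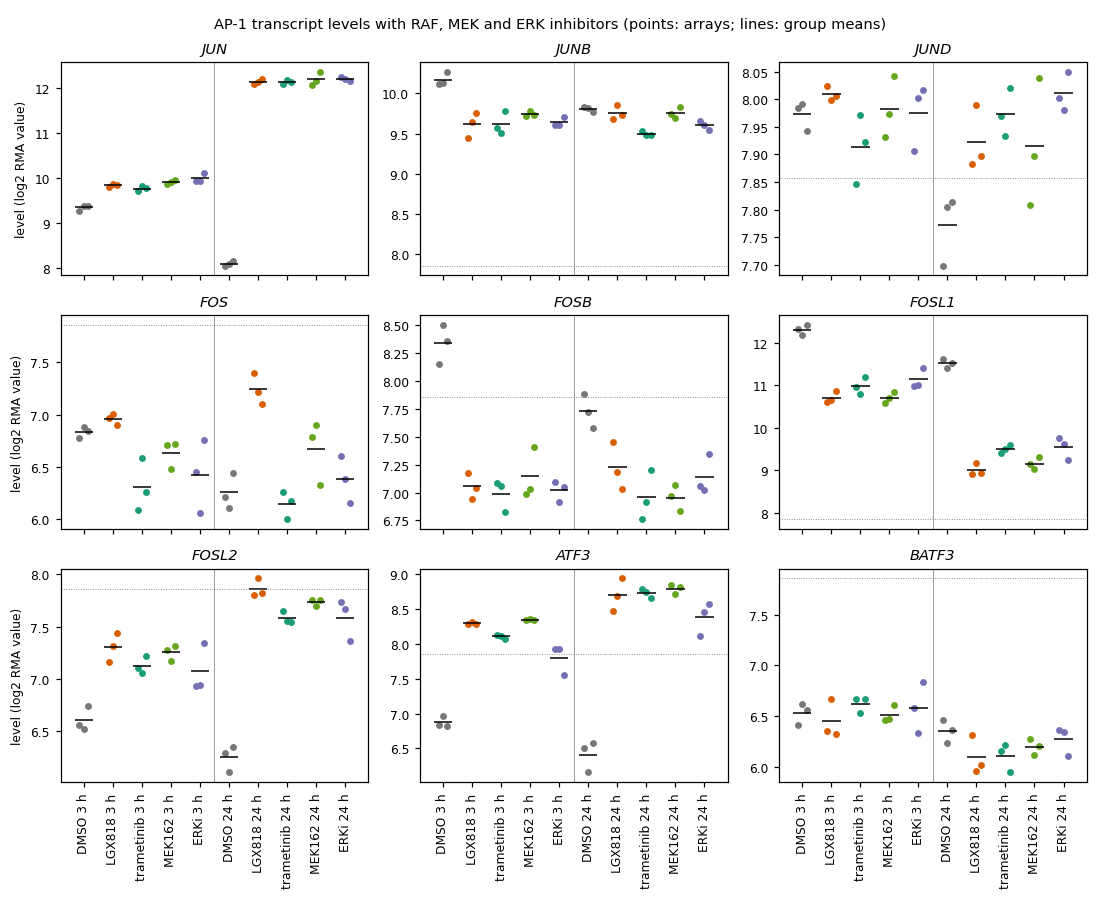
Level (log2 RMA value) of each gene on every array of the inhibitor arm, by treatment and time; points are arrays, black lines group means of 3 arrays, and the dotted line the level filter at 7.86 log2. JUN at 24 h lies at 12.06 to 12.35 with the inhibitors and at 8.05 to 8.17 in DMSO, and FOSL1 lies below its DMSO arrays at both times.

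The 3 h comparison asks what blocking RAF, MEK or ERK does to AP-1 transcripts before slower responses build up. JUN, FOSL2 and ATF3 rose and JUNB, FOSB and FOSL1 fell with each of the 4 inhibitors, while JUND was not called with any. This made 6 of the 7 tested members called in each comparison, where 11.7%, 11.3%, 13.2% and 10.4% of all tested genes were called with LGX818, trametinib, MEK162 and the ERK inhibitor. Without a level filter 6, 7, 6 and 6 of all 9 were called, against 6.53%, 5.91%, 7.21% and 5.40% of all genes. The median size of the difference over the 9 members was 0.56, 0.52, 0.55 and 0.53 log2, against 0.084, 0.089, 0.096 and 0.092 over all genes. The 4 comparisons share the DMSO arrays, so they are not independent, and the doses differ between inhibitors.

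JUN, the core partner of the family, read 9.27, 9.39 and 9.39 log2 in the DMSO arrays at 3 h. It read 9.80, 9.87 and 9.83 with LGX818, 9.71, 9.81 and 9.77 with trametinib, 9.86, 9.90 and 9.96 with MEK162, and 9.92, 9.94 and 10.11 with the ERK inhibitor. Every treated array lay above every DMSO array. The rise was 0.48, 0.41, 0.55 and 0.64 log2 (SE 0.064 for each; adjusted p = 2.37e-06, 3.33e-05, 2.53e-07 and 3.47e-08), which is 1.40-, 1.33-, 1.47- and 1.56-fold. JUNB, an immediate early partner that can restrain JUN, read 10.12, 10.13 and 10.27 in DMSO and 9.45 to 9.79 over the 12 treated arrays, again with no overlap. It fell, with differences of -0.56, -0.55, -0.43 and -0.53 (SE 0.074; adjusted p = 2.45e-06, 3.91e-06, 1.11e-04 and 7.48e-06). JUND, the member known for steady expression, read 7.94 to 7.99 in DMSO and 7.85 to 8.04 in treated arrays, and only the LGX818 arrays all lay above DMSO. Its differences were 0.04, -0.06, 0.01 and 0.00 log2, and the 95% interval reaching farthest from 0 was -0.19 to 0.08 with trametinib.

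Among the FOS proteins, FOSB, an immediate early member, read 8.15, 8.50 and 8.35 in DMSO and 6.82 to 7.41 with inhibitors, so the groups were far apart. It fell, with differences of -1.28, -1.35, -1.19 and -1.31 log2 (SE 0.14; adjusted p = 6.02e-08, 3.06e-08, 2.17e-07 and 5.86e-08), or 2.43-, 2.54-, 2.28- and 2.48-fold. FOSL1 read 12.33, 12.19 and 12.42 in DMSO. With LGX818 it read 10.61, 10.66 and 10.86, with trametinib 10.96, 10.80 and 11.19, with MEK162 10.59, 10.70 and 10.85, and with the ERK inhibitor 10.99, 11.02 and 11.42. All 12 treated arrays lay below DMSO, and the differences were -1.61, -1.33, -1.60 and -1.17 log2 (SE 0.125; adjusted p = 1.60e-10, 8.82e-09, 1.78e-10 and 1.02e-07), a fall of 3.04-, 2.52-, 3.04- and 2.25-fold. FOSL2 (FRA-2) moved the other way. It read 6.56, 6.52 and 6.74 in DMSO and 6.93 to 7.44 with inhibitors, a rise of 0.70, 0.52, 0.65 and 0.47 (SE 0.11; adjusted p = 3.44e-05, 0.00163, 9.99e-05 and 0.00541). With the ERK inhibitor the call was lost without array c, whose GAPDH difference was high: the rise was then 0.33 (adjusted p = 0.0744). FOS, the founding FOS gene, read 6.78, 6.88 and 6.84 in DMSO and 6.07 to 7.01 with inhibitors, and its differences were 0.13, -0.52, -0.19 and -0.41 log2 (SE 0.16). Without a level filter the fall with trametinib was called (adjusted p = 0.0485) and the others were not (0.825, 0.596 and 0.158). That call was lost without any 1 of the DMSO arrays or without trametinib array a or c (-0.55 to -0.41, adjusted p = 0.0980 to 0.274), and without array c of the ERK inhibitor, where the GAPDH difference was high, FOS was called with that inhibitor (-0.58, adjusted p = 0.0445).

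ATF3 read 6.83, 6.96 and 6.83 in DMSO, 8.28, 8.31 and 8.28 with LGX818, 8.13, 8.12 and 8.07 with trametinib, 8.34, 8.35 and 8.34 with MEK162, and 7.92, 7.93 and 7.55 with the ERK inhibitor. No treated array came near the DMSO arrays. The rise was 1.42, 1.23, 1.47 and 0.93 log2 (SE 0.12; adjusted p = 7.01e-10, 1.37e-08, 3.64e-10 and 2.25e-06), 2.67-, 2.35-, 2.77- and 1.90-fold, and ranked 8, 6, 5 and 14 among the rises of all 9703 tested genes. BATF3 read 6.41 to 6.62 in DMSO and 6.32 to 6.83 with inhibitors, and its differences of -0.08, 0.09, -0.02 and 0.05 were not called.

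After 24 h, JUN stood far above DMSO with every inhibitor, ATF3 and FOSL2 had also risen, and FOSL1 and FOSB were lower than in DMSO. Of the 7 tested members 6, 7, 5 and 7 were called with LGX818, trametinib, MEK162 and the ERK inhibitor. Because 69.2%, 64.5%, 67.2% and 65.2% of all tested genes were called, these counts stand near the background and the sizes carry the description. Without a level filter 6, 7, 6 and 7 of 9 were called, against 46.3%, 42.4%, 44.3% and 42.3% of all genes, and the median size over the 9 was 0.98, 0.77, 0.77 and 0.58 log2 against 0.21, 0.19, 0.20 and 0.19.

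JUN read 8.05, 8.09 and 8.17 log2 in DMSO at 24 h. It read 12.08, 12.12 and 12.18 with LGX818, 12.08, 12.16 and 12.12 with trametinib, 12.06, 12.14 and 12.35 with MEK162, and 12.24, 12.18 and 12.14 with the ERK inhibitor. The 12 treated arrays thus lay between 12.06 and 12.35, far from DMSO, and the rise was 4.02, 4.02, 4.08 and 4.08 log2 (SE 0.064; adjusted p = 2.37e-26, 9.25e-26, 2.06e-26 and 6.08e-26), which is 16.3-, 16.2-, 16.9- and 16.9-fold. Among the rises of all 9703 tested genes, that of JUN ranked 1 with trametinib and the ERK inhibitor and 2 with LGX818 and MEK162. JUNB, by contrast, read 9.78 to 9.83 in DMSO and 9.48 to 9.86 in treated arrays. It fell with trametinib and the ERK inhibitor, at -0.31 and -0.20 (SE 0.074; adjusted p = 6.64e-04 and 0.0182), and with LGX818 and MEK162 the differences were both -0.05 (adjusted p = 0.532 and 0.561). Without array c of the ERK inhibitor the JUNB difference was -0.17 and was not called (adjusted p = 0.0708). JUND rose by 0.15, 0.20 and 0.24 with LGX818, trametinib and the ERK inhibitor (SE 0.066; adjusted p = 0.0451, 0.00948 and 0.00264), and its difference with MEK162 was 0.14 (adjusted p = 0.0586, or 0.0487 with the array letter as a block). The MEK162 difference of JUND was also called without the intensity trend (adjusted p = 0.0245), with arrays centred on their medians (0.18, adjusted p = 0.0265), with a second quantile normalisation (0.18, adjusted p = 0.0236) and without MEK162 array a (0.20, adjusted p = 0.0180). The LGX818 call for JUND was lost with no level filter (adjusted p = 0.0662), with only the groups compared in the fit (0.169), with arrays centred on their medians (0.0784) or normalised again (0.0701), and without array b or c of LGX818 or array a or b of DMSO (0.11 to 0.17, adjusted p = 0.0537 to 0.180), and the trametinib call without DMSO array a (0.16, adjusted p = 0.0569).

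FOSL1 read 11.61, 11.41 and 11.53 in DMSO at 24 h. With LGX818 it read 8.90, 9.17 and 8.94, with trametinib 9.42, 9.51 and 9.59, with MEK162 9.14, 9.03 and 9.32, and with the ERK inhibitor 9.76, 9.63 and 9.25. Every treated array lay below every DMSO array. The differences were -2.51, -2.01, -2.35 and -1.97 log2 (SE 0.125; adjusted p = 6.62e-16, 1.12e-13, 2.96e-15 and 1.80e-13), or 5.70-, 4.03-, 5.12- and 3.92-fold. FOSB read 7.88, 7.72 and 7.58 in DMSO and 6.76 to 7.45 with inhibitors. It fell, with differences of -0.50, -0.77, -0.77 and -0.58 (SE 0.14; adjusted p = 0.00202, 2.07e-05, 1.72e-05 and 5.15e-04), with no overlap of groups. FOSL2 read 6.29, 6.11 and 6.35 in DMSO and 7.36 to 7.96 with inhibitors. Its rise was 1.61, 1.33, 1.49 and 1.34 (SE 0.11; adjusted p = 6.32e-13, 4.20e-11, 3.71e-12 and 3.96e-11), 3.06-, 2.51-, 2.80- and 2.53-fold. FOS, below the level filter, read 6.22, 6.11 and 6.45 in DMSO, 7.40, 7.22 and 7.11 with LGX818 and 6.79, 6.91 and 6.33 with MEK162, with trametinib at 6.00 to 6.26 and the ERK inhibitor at 6.16 to 6.60. All LGX818 arrays lay above DMSO, while MEK162, through its array c, trametinib and the ERK inhibitor overlapped it. Without a level filter FOS rose by 0.98 with LGX818 and 0.42 with MEK162 (SE 0.16; adjusted p = 6.54e-06 and 0.0330). The MEK162 call was lost without DMSO array a or b or MEK162 array a or b (0.30 to 0.40, adjusted p = 0.0839 to 0.185). FOS was 0.83 higher with LGX818 than with the mean of both MEK inhibitors (adjusted p = 1.74e-04).

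ATF3 read 6.50, 6.16 and 6.58 in DMSO at 24 h, 8.46, 8.68 and 8.94 with LGX818, 8.78, 8.73 and 8.65 with trametinib, 8.84, 8.72 and 8.81 with MEK162, and 8.11, 8.46 and 8.56 with the ERK inhibitor. The groups did not overlap, and the rise was 2.28, 2.31, 2.38 and 1.96 log2 (SE 0.12; adjusted p = 1.81e-15, 1.90e-15, 7.89e-16 and 6.46e-14). BATF3 read 6.24 to 6.46 in DMSO and 5.95 to 6.37 with inhibitors, and its differences of -0.26, -0.25, -0.15 and -0.08 were not called (adjusted p = 0.0842, 0.104, 0.335 and 0.651). The LGX818 difference of BATF3 was -0.37 and called without LGX818 array a (adjusted p = 0.0211).

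**Figure D2:**
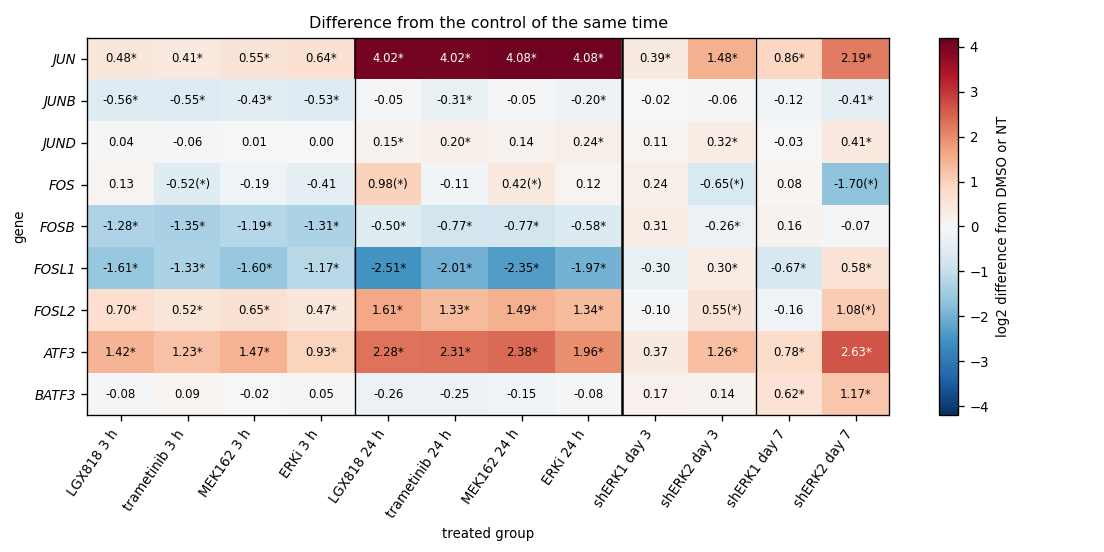
Log2 difference of each gene from DMSO (inhibitors, left of the thick line) or NT (shRNAs, right of it) of the same time, with 3 arrays per group; colour and number give the difference, an asterisk a limma call at an adjusted p under 0.05, and an asterisk in brackets a call for a gene below the level filter, from the fit without it. JUN, FOSL2 and ATF3 are higher and FOSB and FOSL1 lower with every inhibitor at both times, and FOSL1 is higher in shERK2 but lower in shERK1 at day 7.

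The DMSO cells themselves changed between 3 h and 24 h: all 7 tested members fell, where 31.4% of tested genes were called in either direction. FOSB passed the level filter only through DMSO at 3 h, the group where it was high, so the count favours a fall. Without a filter 8 of all 9 were called, against 17.4% of all genes. JUN went from 9.35 to 8.10 (-1.25 log2, SE 0.064, adjusted p = 7.38e-14) and FOSL1 from 12.31 to 11.52 (-0.80, SE 0.125, adjusted p = 2.11e-05). The differences were -0.61 for FOSB and -0.46 for ATF3 (adjusted p = 0.00110 and 0.00400), and -0.36, -0.36 and -0.20 for JUNB, FOSL2 and JUND. Single arrays decided 2 of these calls: FOSL2 without array c at 3 h or b at 24 h (adjusted p = 0.0813 and 0.0820), and JUND without array a or b at 3 h or a at 24 h (adjusted p = 0.0617 to 0.110). Each 24 h difference is therefore read against a lower control. JUN still went up within the treated cells, from a mean of 9.83 at 3 h to 12.13 at 24 h with LGX818. FOSB in LGX818 cells read 7.05 and 7.22 at these times while its DMSO level went from 8.33 to 7.72. Tested as the effect at 24 h minus the effect at 3 h, 6, 6, 5 and 7 of the 7 tested members were called with LGX818, trametinib, MEK162 and the ERK inhibitor, where 52.0%, 49.7%, 50.9% and 48.7% of tested genes were. In the fit without a filter 7, 6, 6 and 6 of all 9 were, against 32.0%, 30.4%, 31.3% and 29.7% of all genes. JUN, FOSL1, FOSL2 and ATF3 differed between the times with each inhibitor.

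The inhibitors were also set against each other. Their doses differ, so the values compare the groups as treated, and the counts are read beside a background in which few genes were called. At 3 h, 0 of 7 tested members were called by limma between trametinib and MEK162, between LGX818 and the mean of both MEK inhibitors, and between the ERK inhibitor and that mean, with 2, 0 and 3 at an unadjusted p under 0.05 and 0.0412%, 0.0618% and 0.443% of tested genes called. With no filter 0 of 9 were called in each, against 0.0280%, 0.0336% and 0.157% of all genes. The ATF3 difference between the ERK inhibitor and the MEK inhibitors at 3 h was -0.42 (95% interval -0.63 to -0.21, adjusted p = 0.0671), which missed the threshold. It leans on array c of the ERK inhibitor, where the GAPDH difference was high, which read 7.549 against 7.925 and 7.928 in arrays a and b. At 24 h the same comparisons called 1, 0 and 1 member, with 2, 3 and 1 at an unadjusted p under 0.05, against 4.59%, 9.84% and 4.96% of tested genes. In the unfiltered fit 0, 1 (FOS) and 1 (ATF3) of 9 were called, against 2.27%, 5.21% and 2.93% of all genes. FOS differed by -0.53 between trametinib and MEK162 there (unadjusted p = 0.00245, adjusted p = 0.0860), which was not called. It was called without MEK162 array c (-0.70, adjusted p = 0.0156) and without the arrays with high GAPDH differences (-0.53, adjusted p = 0.0379). The members called were JUNB, lower with trametinib than MEK162 (-0.26 log2, 95% interval -0.41 to -0.11, adjusted p = 0.0390, or 0.0687 with no level filter), and ATF3, lower with the ERK inhibitor than with the MEK inhibitors (-0.38, interval -0.59 to -0.17, adjusted p = 0.0305). The JUNB call was lost without any 1 of the trametinib arrays or MEK162 array a or c (-0.28 to -0.22, adjusted p = 0.0665 to 0.178). The ATF3 call was lost without ERK inhibitor array a, where the GAPDH difference was high (-0.24, adjusted p = 0.361), and also without its array b, trametinib array a or b or MEK162 array a (adjusted p = 0.0523 to 0.0760). JUN differed by -0.06 between trametinib and MEK162 at 24 h (interval -0.19 to 0.07), by -0.03 between LGX818 and the MEK inhibitors (-0.14 to 0.09), and by 0.03 between the ERK inhibitor and the MEK inhibitors (-0.08 to 0.15). FOSL1 was 0.35 higher with trametinib than MEK162 (interval 0.09 to 0.60, adjusted p = 0.142) and lower with LGX818 than with the MEK inhibitors (-0.33, interval -0.55 to -0.11, adjusted p = 0.0535), and neither was called. The LGX818 difference of FOSL1 was called without LGX818 array b (-0.41, adjusted p = 0.04645) or MEK162 array b (-0.36, adjusted p = 0.0431). Leaving out the arrays with high GAPDH differences also gave a call (-0.33, adjusted p = 0.01645).

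**Figure D3:**
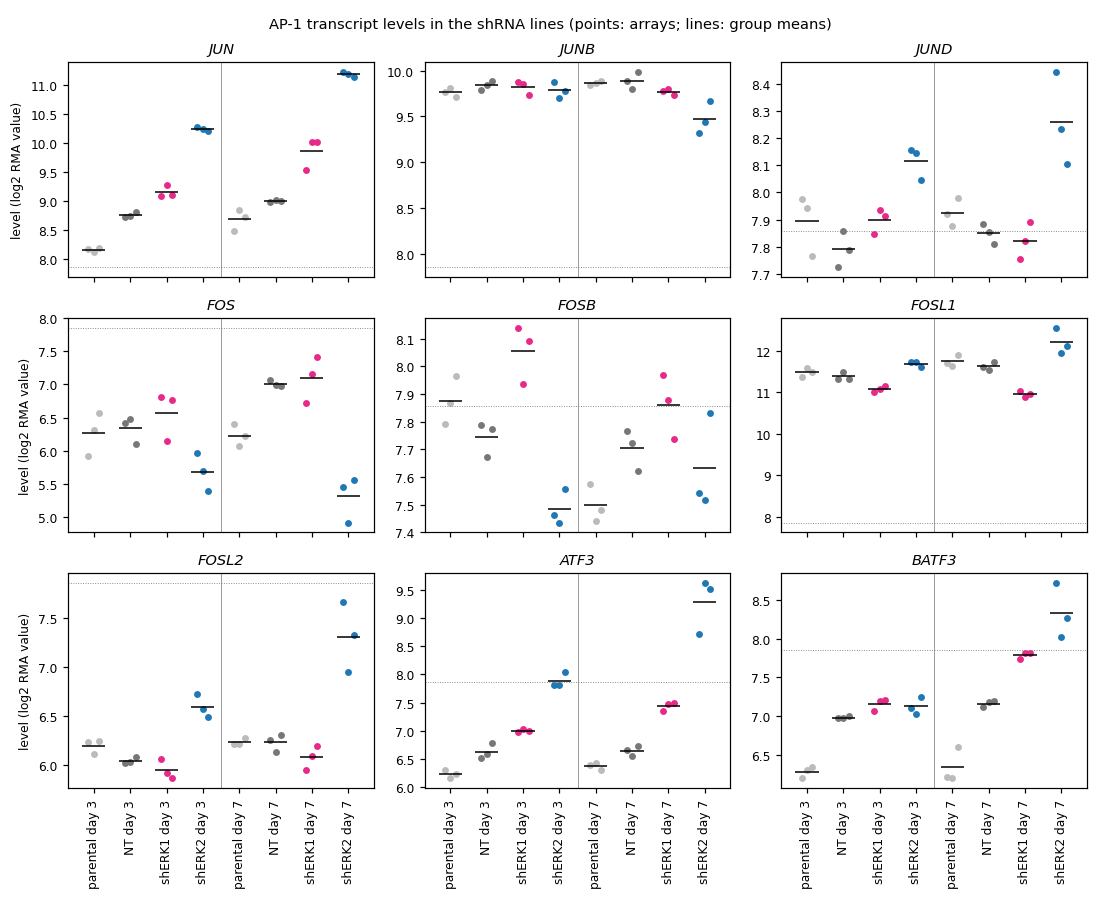
Level (log2 RMA value) of each gene on every array of the shRNA arm, by line and day; points are arrays, black lines group means of 3 arrays, and the dotted line the level filter at 7.86 log2. JUN and ATF3 are highest in shERK2 at both days, and FOSL1 is lowest in shERK1 and highest in shERK2.

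The shRNA arm asks how lowering ERK1 or ERK2 alone compares with blocking the pathway. Against NT, JUN and ATF3 rose in shERK2 at both days and, less far, in shERK1 at day 7, and BATF3 rose in both lines at day 7. FOSL1 fell in shERK1 and rose in shERK2 at day 7. Of the 7 tested members, 1 and 5 were called at day 3 in shERK1 and shERK2, where 4.66% and 33.0% of tested genes were, and 4 and 6 at day 7, where 17.9% and 64.2% were. Without a level filter 1, 7, 4 and 8 of all 9 were called in shERK1 and shERK2 at day 3 and in shERK1 and shERK2 at day 7, against 2.77%, 20.8%, 12.4% and 45.5% of all genes. The lines of a day share their NT arrays.

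JUN read 8.73, 8.74 and 8.81 log2 in NT at day 3, 9.08, 9.27 and 9.10 in shERK1, and 10.27, 10.25 and 10.21 in shERK2. At day 7 it read 8.98 to 9.02 in the 3 NT arrays, 9.53, 10.02 and 10.02 in shERK1, and 11.23, 11.20 and 11.14 in shERK2. The 3 lines kept this order on both days without overlap. JUN rose in shERK1 by 0.39 at day 3 (SE 0.10, adjusted p = 0.0254) and 0.86 at day 7 (adjusted p = 3.38e-06), and in shERK2 by 1.48 and 2.19 (adjusted p = 1.64e-10 and 6.38e-14), which is 2.79- and 4.56-fold. The day 3 call in shERK1 was lost without its array b or without any 1 of the NT arrays (0.33 to 0.41, adjusted p = 0.0641 to 0.138). JUNB was called only in shERK2 at day 7, where it read 9.32, 9.44 and 9.67 against 9.89, 9.80 and 9.99 in NT, a difference of -0.41 (SE 0.074, adjusted p = 5.91e-05). JUND rose in shERK2 by 0.32 at day 3 and 0.41 at day 7 (SE 0.081; adjusted p = 0.00365 and 1.60e-04), with shERK2 arrays at 8.05 to 8.44 and NT arrays at 7.73 to 7.88. In shERK1 its differences were 0.11 and -0.03.

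FOSL1 read 11.32, 11.50 and 11.32 in NT at day 3, 11.00, 11.09 and 11.15 in shERK1, and 11.72, 11.72 and 11.61 in shERK2. At day 7 it read 11.61, 11.54 and 11.72 in NT, 11.03, 10.88 and 10.95 in shERK1, and 12.56, 11.94 and 12.12 in shERK2. On both days all shERK1 arrays lay below and all shERK2 arrays above NT. The difference in shERK1 was -0.67 at day 7 (SE 0.11, adjusted p = 1.47e-04), and the day 3 difference of -0.30 was not called (adjusted p = 0.133). The rise in shERK2 was 0.30 at day 3 and 0.58 at day 7 (adjusted p = 0.0358 and 8.42e-05). At day 3 the call was lost without NT array a or c or shERK2 array a or b (0.27 to 0.29, adjusted p = 0.0966 to 0.114). At day 7 the rise was 0.41 without array a (adjusted p = 1.91e-04) and 0.32 without arrays a and c, those with high GAPDH differences (adjusted p = 0.0105, with array b alone assumed to vary like the other groups).

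FOSB was called in shERK2 at day 3 alone, at 7.46, 7.43 and 7.56 against 7.79, 7.67 and 7.77 in NT (-0.26, SE 0.090, adjusted p = 0.0315). That call was lost without NT array a or c or shERK2 array a or b (-0.25 to -0.24, adjusted p = 0.0881 to 0.0991). In shERK1 FOSB was 0.31 higher at day 3, which missed the threshold (adjusted p = 0.0512). FOS and FOSL2 lay below the level filter. FOS read 7.07, 6.99 and 6.97 in NT at day 7, 6.72, 7.16 and 7.41 in shERK1, and 5.46, 4.92 and 5.56 in shERK2. Its shERK2 arrays were thus low and apart from NT while shERK1 overlapped NT, and without a filter FOS fell in shERK2, at -0.65 on day 3 and -1.70 on day 7 (SE 0.21; adjusted p = 0.0277 and 5.42e-07). The day 3 call was lost without NT array a or b or shERK2 array b or c (-0.66 to -0.51, adjusted p = 0.0652 to 0.146). Against parental cells the FOS difference in shERK2 was -0.59 at day 3, with overlap and no call (adjusted p = 0.0597), and -0.92 at day 7 (adjusted p = 0.00109). FOSL2 rose in shERK2 by 0.55 and 1.08 (SE 0.125; adjusted p = 0.00221 and 2.31e-07), with 7.66, 6.95 and 7.33 against 6.25, 6.13 and 6.30 at day 7, and its shERK1 differences were -0.10 and -0.16. The day 7 rise of FOSL2 was 0.71 without arrays a and c of shERK2 (adjusted p = 1.18e-04).

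ATF3 read 6.52, 6.60 and 6.78 in NT at day 3, 6.98, 7.04 and 7.00 in shERK1, and 7.82, 7.82 and 8.04 in shERK2. At day 7 it read 6.66, 6.56 and 6.74 in NT, 7.35, 7.47 and 7.49 in shERK1, and 8.71, 9.61 and 9.51 in shERK2, where array a, with the highest GAPDH difference, was the lowest. It rose in shERK2 by 1.26 at day 3 and 2.63 at day 7 (SE 0.15; adjusted p = 1.14e-06 and 2.75e-12), 2.39- and 6.18-fold, and in shERK1 by 0.78 at day 7 (adjusted p = 8.77e-04). BATF3 read 7.12, 7.19 and 7.19 in NT at day 7, 7.73, 7.81 and 7.82 in shERK1, and 8.71, 8.02 and 8.27 in shERK2. It rose by 0.62 and 1.17 (SE 0.13; adjusted p = 0.00172 and 9.21e-08), and at day 3 its differences of 0.17 and 0.14 were not called. Without arrays a and c of shERK2 the BATF3 rise was 0.86 (adjusted p = 1.93e-05) and the ATF3 rise 2.96.

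The difference between the 2 targeting lines was tested directly. Of the 7 tested members, 5 differed at day 3 and all 7 at day 7, where 35.5% and 68.7% of tested genes were called. ATF3 and BATF3 passed the level filter only through shERK2, the line where they were high. Of these 2 lines FOSB passed only through shERK1, where it was higher, so these counts favour a difference. Without a filter 6 and 9 of all 9 were called, against 23.1% and 51.8% of all genes. At day 7 shERK2 exceeded shERK1 by 1.33 for JUN, 1.84 for ATF3, 1.25 for FOSL1, 0.55 for BATF3 and 0.44 for JUND, and the differences of JUNB and FOSB were -0.29 and -0.23. The BATF3 difference was 0.36 without shERK2 array a (adjusted p = 0.00760), and 0.23 and not called without arrays a and c (adjusted p = 0.15). The FOSB call was lost without array a or b of either line (-0.22 to -0.17, adjusted p = 0.0688 to 0.124). FOSL1 differed by 0.61 at day 3 (SE 0.11, adjusted p = 1.49e-04) and by 2.38-fold at day 7 (adjusted p = 1.73e-09). The change of effect from day 3 to day 7 was called for 4 members in shERK2, where 23.9% of tested genes were called, and without a filter for 6 of 9, against 13.7% of all genes. The unfiltered calls included FOS (-1.05, adjusted p = 0.0183) and FOSL2 (0.53, adjusted p = 0.0499). From day 3 to day 7 the FOS mean went from 6.336 to 7.012 in NT and from 5.684 to 5.31 in shERK2. The FOS call was lost without NT array c or shERK2 array a at day 3 (adjusted p = 0.05845 and 0.05885). The FOSL2 call was lost without any 1 of the NT arrays (adjusted p = 0.05955 to 0.118). It was also lost without shERK2 array b or c at day 3 or a or c at day 7 (0.0752 to 0.130). Without both a and c of shERK2 at day 7 the FOSL2 difference was 0.16. In shERK1 limma called 0 members and 0.522% of tested genes, with 3 members at an unadjusted p under 0.05 (JUN, FOSL1 and BATF3), and without a filter 0 of 9, against 0.610% of all genes. JUN there gave 0.47, and 0.63 with a call when shERK1 array a of day 7 was left out (adjusted p = 0.00484). FOSL1 gave -0.37, which was called with shERK2 arrays a and c of day 7 left out of the fit.

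Against parental cells, the NT line itself was called higher in JUN and BATF3. Parental arrays read 8.17, 8.12 and 8.18 for JUN at day 3 and 8.49, 8.85 and 8.73 at day 7, below the NT arrays on both days. NT exceeded parental cells by 0.60 and 0.31 for JUN (adjusted p = 2.10e-04 and 0.0374) and by 0.70 and 0.82 for BATF3 (SE 0.13; adjusted p = 6.47e-04 and 7.46e-05), which were the 2 of 7 tested members called on each day, against 11.9% and 16.4% of tested genes. The day 7 call of JUN was lost without parental array a or c or any 1 of the NT arrays (0.21 to 0.33, adjusted p = 0.0608 to 0.230). With no level filter 2 and 3 of all 9 were called, against 8.74% and 13.1% of all genes, and the third was FOS, which NT exceeded by 0.78 at day 7 (adjusted p = 0.0131; not called without parental array b or NT array a, at 0.0614 and 0.0517). ATF3 in NT also lay above parental cells on both days without overlap, by 0.40 and 0.27, but was not called (adjusted p = 0.0988 and 0.258). That outcome depended on arrays of another line. With shERK2 arrays a and c of day 7 left out of the fit, the ATF3 differences stayed at 0.40 and 0.27 but were called. For comparison, JUN in shERK1 differed from NT by 0.39 at day 3 and 0.86 at day 7, and ATF3 by 0.37 and 0.78. The shERK1 line differed from parental cells in 4 members at day 3 and 5 at day 7, against 21.2% and 39.6% of tested genes, and shERK2 in 5 and 6, against 27.0% and 60.0%. Without a filter the counts of 9 were 4 and 6 in shERK1, against 15.0% and 32.6% of all genes, and 5 and 8 in shERK2, against 16.1% and 39.0%. FOSL1 differed from parental cells in shERK1 by -0.40 at day 3 (adjusted p = 0.0108; 0.0600 without parental array b) and -0.79 at day 7 (adjusted p = 4.72e-06). In shERK2 the FOSL1 difference was 0.21 at day 3, which was not called (adjusted p = 0.170), and 0.46 at day 7 (adjusted p = 0.00106). The latter was 0.28 without shERK2 array a (adjusted p = 0.00557), and 0.20 and not called without arrays a and c (adjusted p = 0.116). Between day 3 and day 7, limma called 0 of 7 members in NT (2 at an unadjusted p under 0.05; 5.50% of tested genes were called, and without a filter 0 of 9, against 3.10%) and 2 in parental cells, JUN at 0.53 and FOSB at -0.38 (adjusted p = 0.00234 and 0.0126; 6.94% of tested genes, and without a filter 2 of 9, against 3.44%). The FOSB call was lost without parental array c at day 3 or b at day 7 (adjusted p = 0.0732 and 0.0580). In NT, FOS rose by 0.68 between these days without overlap (adjusted p = 0.0841, no level filter). FOSL1 rose there by 0.24 (adjusted p = 0.208), and neither was called. With shERK2 arrays a and c of day 7 left out of the fit, these NT differences of FOS and FOSL1 were the same in size but were called.

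**Figure D4:**
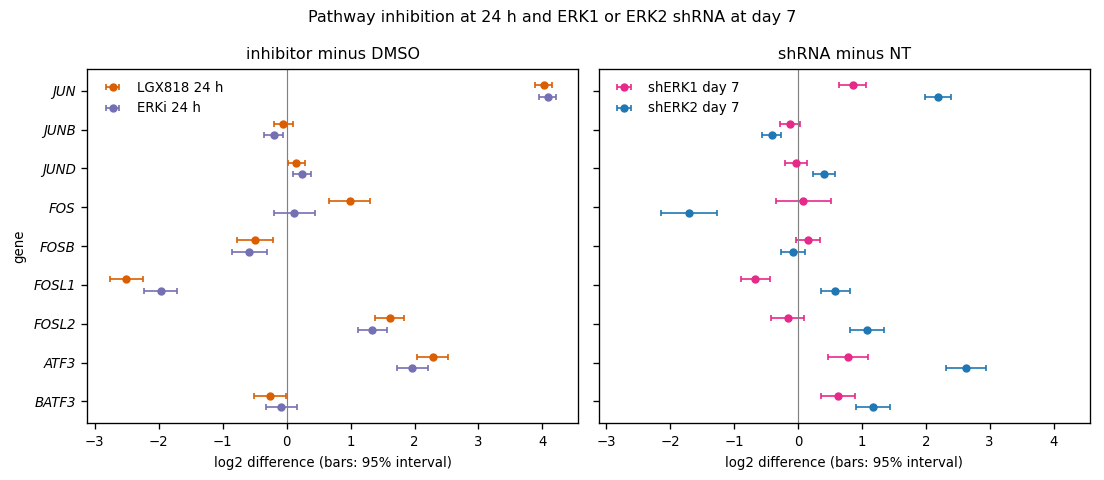
Log2 difference from the control of the same time for LGX818 and the ERK inhibitor at 24 h (left) and for shERK1 and shERK2 at day 7 (right), with 95% intervals of the limma fit and 3 arrays per group; FOS, BATF3 (left) and FOSL2 (right) come from the fit without a level filter, as does FOS on the right. JUN and ATF3 lie to the right of 0 in all 4, and FOSL1 lies left of 0 with the inhibitors and shERK1 and right of 0 in shERK2.

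The inhibitor and shRNA arms have separate controls and times, so their values stand side by side without a test. JUN and ATF3 were called higher with every inhibitor at 24 h and in both lines at day 7. In shERK2 at day 7, JUN differed from control by 2.19 and ATF3 by 2.63, where LGX818 at 24 h gave 4.02 and 2.28. FOSL1 fell with the inhibitors and in shERK1 but rose in shERK2. BATF3 rose in both lines at day 7 and, with all arrays in the fit, was not called with any inhibitor.

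Other genes of the pathway were read from lists, beside the shares of all tested genes in the same comparisons. With LGX818, trametinib, MEK162 and the ERK inhibitor, 5.27%, 5.09%, 6.38% and 5.51% of tested genes rose and 6.43%, 6.18%, 6.77% and 4.87% fell at 3 h. At 24 h 35.4%, 31.6%, 33.4% and 33.6% rose and 33.8%, 33.0%, 33.8% and 31.5% fell, so the list counts at 24 h stand near a high background. In shERK1 1.97% rose and 2.69% fell at day 3 and 8.74% and 9.16% at day 7, and in shERK2 17.5% and 15.5% at day 3 and 32.8% and 31.5% at day 7. Of 18 other basic leucine zipper genes that were tested, 1 rose with each inhibitor at 3 h and 5, 5, 5 and 6 fell, and at 24 h 6, 6, 6 and 5 rose and 7, 5, 6 and 5 fell. Their median difference at 24 h was -0.05, -0.05, -0.06 and 0.04 log2, where that of all tested genes was 0.02, 0.00, 0.00 and 0.02. MAFF, a small MAF protein, fell at 24 h (-2.93, -3.44, -3.36 and -3.36; SE 0.085), as did CEBPB, a C/EBP factor (-0.52, -0.54, -0.63 and -0.49). NFIL3, a repressor, rose by 1.11, 0.81, 0.99 and 1.20, and CREB5, a CRE-binding factor, by 0.82, 1.16, 1.06 and 0.86. In shERK1 and shERK2 this list held 1 and 4 rises and 1 and 3 falls at day 3, and 1 and 6 rises and 3 and 2 falls at day 7, with NFE2L3 2.76 higher and CREB3 0.67 higher in shERK2 at day 7 and NFIL3 and MAFF lower (-0.50 and -0.47).

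Of 20 tested textbook AP-1 targets, 9, 7, 9 and 9 fell at 3 h and 0, 1, 1 and 1 rose. Their median difference was -0.15, -0.15, -0.24 and -0.18 log2, against 0.02, 0.04, 0.03 and 0.04 over all tested genes. At 24 h 6, 7, 6 and 6 rose and 9, 9, 9 and 10 fell. The cytokine genes CXCL8 and LIF fell (CXCL8 at -3.37, -3.17, -3.32 and -3.74, LIF at -3.22, -2.79, -3.07 and -2.59), while HBEGF, an EGF receptor ligand, rose by 0.93, 0.75, 0.95 and 0.81 and EMP1, a membrane protein gene, by 0.87, 0.87, 0.82 and 0.88. Several of these genes are also known to respond to ERK directly. In the shRNA arm 1 of 21 rose and 9 fell in shERK1 at day 7, and 9 rose and 8 fell in shERK2. At day 3 the counts were 1 and 3 in shERK1 and 7 and 7 in shERK2. In shERK2 at day 7 GJA1, the connexin 43 gene, fell (-5.83), as did LIF (-1.12), and THBS1 (thrombospondin 1) and S100A2 rose by 1.81 and 1.39 (adjusted p = 5.37e-09 and 3.19e-09).

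Of 17 tested genes of the JNK cascade and of JUN turnover, 0, 0, 0 and 1 rose and 1, 1, 1 and 2 fell at 3 h, and 5, 3, 4 and 3 rose and 4, 4, 4 and 3 fell at 24 h. MAP3K5 (ASK1), a stress kinase upstream of JNK, fell at 24 h (-1.75, -2.09, -1.93 and -1.64; SE 0.13), as did SENP1, a SUMO protease (-0.68, -0.57, -0.66 and -0.56), while MAP4K4, another kinase upstream of JNK, rose by 0.56, 0.63, 0.63 and 0.66. In shERK2 at day 7 3 rose and 4 fell, with MAP3K5 at -1.55, SENP1 at -0.51, MAP4K4 at 0.56 and MAP3K4 at 0.64. At day 3 4 rose and 1 fell in shERK2. In shERK1 0 of 17 were called at day 3 and 1 fell at day 7. Only 3 serum response factor and ternary complex genes could be tested with the inhibitors and 2 with the shRNAs. Of these, 1, 0, 0 and 0 rose and 1, 1, 0 and 0 fell at 3 h, and 0, 1, 0 and 0 rose and 1 fell with each inhibitor at 24 h. With the shRNAs, none was called except in shERK2 at day 7, where 1 rose and 1 fell. ELK1, an ETS partner of serum response factor, fell at 24 h (-0.43, -0.26, -0.37 and -0.34; SE 0.10) and in shERK2 (-0.40) at day 7, where SRF rose by 0.32.

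The genes whose group means followed each member most closely were taken by Pearson r, over the 10 groups of the inhibitor arm and the 8 of the shRNA arm, which share their normalisation and controls. In the inhibitor arm these were RAB33A, HABP4 and PPP2R3A for JUN (r = 0.998, 0.993 and 0.993), ENC1, NIFK and RRS1 for FOSL1 (0.997, 0.994 and 0.993), LIMCH1, SETDB2 and PDE4DIP for FOSL2 (0.989, 0.988 and 0.988), and SYNC, PALS1 and QTMAN for ATF3 (0.972, 0.969 and 0.968). FOSB was followed by WNK4, ANGPTL4 and the immediate early gene EGR1 (0.950, 0.947 and 0.942), JUNB by CCDC85B, SMURF2 and ANGPTL4 (0.882, 0.876 and 0.850), and JUND by DENND5A, MRFAP1L1 and COL5A3 (0.922, 0.899 and 0.893). In the shRNA arm the closest was DNAJC8 for JUN (0.992), DLST for JUNB (0.991), PTK6 for JUND (0.996), OSBP for FOSB (0.986), SIPA1 for FOSL1 (0.996), BORCS7 for ATF3 (0.991) and TUFT1 for BATF3 (0.994), with CCND2 next for BATF3 (0.993). With so few groups, high values arise readily among 9703 and 9779 tested genes.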

How the data were processed

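RNA of WM266-4 cells was measured on Affymetrix arrays. Per the submitters' processing notes, the authors made the deposited log2 values with RMA in the affy package, which subtracts background, brings arrays to a common distribution and combines probes into probe sets; versions, chip definition and genome build are not given in the sources used here. The table held 18989 probe sets: 62 controls, 17875 with 1 gene symbol and 1052 not used here. Quantile normalisation over all arrays can shrink a shift shared by most genes. Precision is limited by the number of arrays.

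Group means were estimated in each arm separately by limma 3.58.1 in R 4.3.3 (lmFit, then eBayes with an intensity trend; 20 and 16 residual degrees of freedom), after keeping genes with at least 1 group mean above 7.86 log2, which left 9703 and 9779 genes. Errors beside differences are moderated standard errors, and p values were adjusted by Benjamini-Hochberg over all tested genes within each of 35 comparisons. The scripts were tested on simulated data. The members were taken by symbol; all 9 were named in every comparison, and of 4 lists (other bZIP genes, serum response and ternary complex factors, the JNK cascade and JUN turnover, textbook AP-1 targets) up to 2 of the highest and 2 of the lowest called genes. Members and lists were chosen with earlier results of these data known. Promoter sequences are RefSeq's. Samples were grouped by the labels. Array letters were checked for pairing: deviations from group means correlated at -0.445 to 0.422, and all 3 letters exceeded 0.1 in 1 of 12 comparisons, MEK162 at 24 h. Alternatives were the level filter, trend, centring, a second quantile normalisation, the groups fitted, the array letter as a block, leaving out each array, and, chosen after seeing the data, leaving out arrays with a GAPDH 3′ minus 5′ difference above 0.5 and the runs for comparisons other than those with DMSO or NT.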

Additional observations from a re-analysis of the deposited data

Results flagged for a closer look

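The effects of the inhibitors were not the same at 24 h as at 3 h, and the difference itself passed the test for the values given here, each as the log2 difference from DMSO at 24 h minus that at 3 h. DMSO levels of the 7 tested members also fell between these times, as tested above, and each difference includes that fall. The change within treated cells alone was not tested. For JUN the difference was 3.54 with LGX818, 3.60 with trametinib, 3.53 with MEK162 and 3.44 with the ERK inhibitor. For FOSL1, which fell further at 24 h, it was -0.91, -0.68, -0.75 and -0.80 in the same order. For FOSL2 it was 0.92, 0.81, 0.84 and 0.87, and for ATF3 0.87, 1.07, 0.91 and 1.04. JUNB had fallen at 3 h and less or not at 24 h, which gave 0.50 with LGX818, 0.38 with MEK162 and 0.33 with the ERK inhibitor. From 3 h to 24 h its DMSO mean went from 10.17 to 9.81. Its treated means went from 9.617 to 9.757, 9.745 to 9.760 and 9.642 to 9.608 with these inhibitors. FOSB, whose fall was smaller at 24 h, gave 0.78 with LGX818, 0.58 with trametinib and 0.73 with the ERK inhibitor. The DMSO mean of FOSB went from 8.333 to 7.724. Its treated means went from 7.054 to 7.224, 6.986 to 6.958 and 7.021 to 7.141 with these inhibitors. JUND gave 0.26 with trametinib and 0.24 with the ERK inhibitor. The JUND call with trametinib was lost without its array a at 3 h or c at 24 h or DMSO array a at 24 h (adjusted p = 0.0544 to 0.0676). With the ERK inhibitor it was lost without DMSO array a or b at 3 h or a at 24 h, or without its own array a at 3 h or a or c at 24 h (adjusted p = 0.0521 to 0.106), and with no level filter (0.0601). The FOSB call with trametinib was lost without its array c at 24 h (0.46, adjusted p = 0.0547).

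In shERK2 the effect against NT differed between day 7 and day 3 for JUN by 0.71, for ATF3 by 1.37, for BATF3 by 1.02 and for JUNB by -0.36. The JUNB call was lost without shERK2 array a at day 3 or NT array c at day 7 (adjusted p = 0.0504 and 0.0527). Arrays a and c of shERK2 at day 7 are those with high GAPDH differences.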

How the results depend on the processing

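Alternatives for the 12 comparisons with DMSO or NT were compared by the number of members called and by each member's own call, over members that passed the level filter. There 155 of 180 counts stayed within 1.5 times the count reported, and of single genes 1149 kept direction and call, 25 lost the call, 14 gained it and 0 reversed. With the level filter at the 75th percentile (10.1 log2), which leaves 2 or 3 members to test, 3 were called with each inhibitor at 3 h, 2, 3, 2 and 3 at 24 h, and 2 in shERK2 at day 3 and in shERK1 and shERK2 at day 7. With only the compared groups in the fit, 3 were called with MEK162 at 24 h, 3 in shERK1 at day 3 and 2 in shERK1 at day 7, with fewer members tested. The count of 1 in shERK1 at day 3 became 2 without the intensity trend, with arrays centred on their medians or with a second quantile normalisation, and 4 (JUN, FOSB, FOSL1 and ATF3) without arrays with GAPDH differences above 0.5. Leaving out 1 array at a time gave 0 to 1 calls there (0 without NT array a, b or c) and 3 to 5 in shERK2 at day 3 (3 without NT array a or c or shERK2 array a or b). With the array letter as a block, 6 members were called with MEK162 at 24 h. Among members that passed the level filter the block changed no other call in these 12 comparisons. The letters beyond that comparison give no evidence of pairing. For the other 23 comparisons, and for members below the level filter, only the array letter as a block, leaving out each array, leaving out arrays with high GAPDH differences and, where it applied, no level filter were run, all added after seeing the data. Of these single values 2312 kept direction and call, 100 lost the call, 29 gained it and 0 reversed. The block there ended the calls of FOS with trametinib at 3 h (adjusted p = 0.0576) and of JUND in shERK2 against parental cells and against shERK1 at day 3 (0.0577 and 0.0507), and FOSL1 in LGX818 against the MEK inhibitors at 24 h was called (0.0426). Arrays carry no detection calls, so levels of FOS, BATF3 and FOSL2 under the median of all values limit what their differences show.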
